A study of Mus musculus with 8 samples.

Results

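The genes described here make the enzymes of glycolysis, the pentose phosphate pathway and pyruvate dehydrogenase, together with the hypoxia-inducible factor gene Hif1a, 2 of the hydroxylases that control it and 6 of its targets. They were chosen by name: 32 symbols were listed, and per gene the probe set with the highest mean signal over all arrays was used. Of the 32, 29 had a probe set annotated to that gene alone. All 29 passed the filter on dim probe sets, and they are 29 of the 12520 genes tested. Gpi1, Eno1 and G6pdx stand for glucose phosphate isomerase, the common enolase and glucose phosphate dehydrogenase. They had no such probe set and are not analysed here, and probe sets with several symbols were not searched for them. Ero1l is given under its present symbol, Ero1a.

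The samples were CD8 T cells from spleens of C57BL/6 mice, bead-selected and cultured for 18 h with dendritic cells from bone marrow, 10 T cells to each dendritic cell, after which dendritic cells were depleted through CD11c and 100 ng of RNA was labelled for 1 Affymetrix array per sample. The 4 groups of 2 arrays were p50 cRel DKO N4 (T cells without the NF-kB subunits p50 and cRel, with dendritic cells carrying the ovalbumin peptide N4), PKC theta KO N4 (T cells without PKC theta, a kinase between the T cell receptor and NF-kB, with N4), WT N4 (wild-type cells with N4) and WT UN (wild-type cells with dendritic cells given no peptide). In the text DKO stands for p50 cRel DKO and PKC KO for PKC theta KO. All 4 groups were cultured with dendritic cells, and no knockout cells without peptide were analysed here. The T cell receptor, the construction of the knockouts and whether a culture pooled mice are not stated in the labels. The arrays of a group are called number 1 and number 2 after their titles. Nothing in the labels says that they came from separate mice or cultures, so that p-values measure the spread between these arrays, which may be technical. The 2 WT UN arrays do differ in Xist, the widest gap of any gene between them (5.79).

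Glycolysis splits glucose into pyruvate with a small yield of ATP, and lactate dehydrogenase turns the pyruvate into lactate. The pentose phosphate pathway branches off after the hexokinase step and provides NADPH and ribose, while pyruvate dehydrogenase sends pyruvate into the mitochondria. Hif1a encodes the oxygen-regulated subunit of hypoxia-inducible factor (HIF), which prolyl hydroxylases of the Egln family mark for destruction when oxygen is present. Stabilised HIF switches on glycolytic genes and genes such as Vegfa, and activated T cells are known for high glycolysis even in the presence of oxygen.

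HIF binds short motifs whose core reads ACGTG or GCGTG. Promoters are shown for some members that rose with N4 (Hk2, Ldha and Pgk1) and for some HIF targets that differed between arrays (Bnip3 and Ankrd37). Tpi1, which lacks these letters, is shown as well. The choice is not a ranking by size of change, and windows not shown include Egln3 with 1 match and the first Vegfa window with 0. The windows are the 250 bases before the annotated start, from RefSeq on build GRCm38.p6, 5′ to 3′ on the gene's strand, and capitals mark a motif on either strand. Hk2 lies at chr6:82774455-82774704 on the minus strand, and the Ldha window at chr7:46845554-46845803 on the plus strand. Pgk1 lies at chrX:106186850-106187099 on the plus strand, and Bnip3 at chr7:138909507-138909756 on the minus strand. Ankrd37 lies at chr8:45999851-46000100 and Tpi1 at chr6:124814159-124814408, both on the minus strand.
Hk2: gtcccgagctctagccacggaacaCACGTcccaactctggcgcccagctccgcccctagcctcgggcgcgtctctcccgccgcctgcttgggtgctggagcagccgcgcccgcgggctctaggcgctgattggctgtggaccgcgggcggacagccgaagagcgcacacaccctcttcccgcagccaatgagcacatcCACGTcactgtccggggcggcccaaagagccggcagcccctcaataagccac
Ldha: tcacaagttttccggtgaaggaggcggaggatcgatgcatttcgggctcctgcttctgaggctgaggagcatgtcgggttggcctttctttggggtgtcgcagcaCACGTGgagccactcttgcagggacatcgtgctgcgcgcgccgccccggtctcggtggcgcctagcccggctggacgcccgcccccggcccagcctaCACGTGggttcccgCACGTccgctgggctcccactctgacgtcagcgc
Pgk1: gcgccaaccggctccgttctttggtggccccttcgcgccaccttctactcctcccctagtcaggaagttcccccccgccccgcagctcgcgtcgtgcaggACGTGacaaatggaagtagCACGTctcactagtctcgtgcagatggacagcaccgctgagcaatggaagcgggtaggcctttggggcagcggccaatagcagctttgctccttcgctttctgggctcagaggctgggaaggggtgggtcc
Bnip3: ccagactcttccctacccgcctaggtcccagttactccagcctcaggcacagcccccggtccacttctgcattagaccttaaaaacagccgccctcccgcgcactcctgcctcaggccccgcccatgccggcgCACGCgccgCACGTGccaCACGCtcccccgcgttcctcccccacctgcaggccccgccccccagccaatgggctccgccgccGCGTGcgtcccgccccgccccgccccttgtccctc
Ankrd37: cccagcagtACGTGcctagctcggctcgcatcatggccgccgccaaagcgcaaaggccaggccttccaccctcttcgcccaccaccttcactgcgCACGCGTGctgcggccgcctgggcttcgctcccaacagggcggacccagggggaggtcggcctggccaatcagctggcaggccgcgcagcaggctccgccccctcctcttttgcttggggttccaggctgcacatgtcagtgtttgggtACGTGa
Tpi1: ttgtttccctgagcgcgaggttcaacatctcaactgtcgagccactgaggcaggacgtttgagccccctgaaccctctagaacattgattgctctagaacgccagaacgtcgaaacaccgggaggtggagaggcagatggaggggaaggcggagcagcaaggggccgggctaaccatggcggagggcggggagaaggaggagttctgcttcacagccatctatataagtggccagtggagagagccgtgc

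Of the 29 measured members, 28 had a promoter window (Ndrg1 did not), and 27 of the 28, or 96.4%, held ACGTG or GCGTG on either strand in at least 1 window. Over the 10144 tested genes with a window the share was 59.7%, and over all 27025 genes of the table it was 41.5%. Members often had more than 1 start: 33 of their 41 windows held a motif (80.5%), against 54.1% of the windows of tested genes. The palindrome CACGTG, which contains ACGTG on both strands and was counted on each, stood in 5 of the 28 members (17.9%) and in 9.61% of tested genes with a window. Ldha and Bnip3 each had 5 matches in the windows shown, and Tpi1 had none. The matches are a description of letters and not of HIF binding.

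Unless stated otherwise, values below are on the scale log2(signal + 16), where a difference of 1 is a doubling for a bright probe set. Differences are the tested arrays' mean minus the comparison arrays' mean. A gene changed where its adjusted p (limma, Benjamini-Hochberg over all 12520 genes) was under 0.05. The deposited signals carry the same trimmed mean on every array, so a level is relative to the rest of the array, and fewer cells of a type and less RNA per cell cannot be told apart. The median signal over probe sets lay between 33.8 and 70.5.

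Several facts about the arrays bear on the results. The Rel probe set, for the gene of cRel, read 6.19 and 5.92 on DKO N4 arrays, against 8.97 to 10.09 on the other 6. Prkcq, the gene of PKC theta, read 11.00 and 10.75 on PKC KO N4 arrays and 11.30 to 11.90 on the other 6, so its transcript was still measured, and the labels do not say whether its probes lie in the deleted stretch. Most markers of other cells were lower in WT N4 than in WT UN cells, where 23.5% of all genes fell and 17.2% rose. Of the measured markers, 9 of 9 of B cells, 12 of 12 of dendritic cells and macrophages and 5 of 5 of neutrophils fell. So did 2 of 2 of NK cells and 2 of 2 of erythroid cells, while of 2 CD4 T cell markers 1 rose and 1 fell. Of 8 CD8 T cell markers 4 rose and none fell. The X-linked Xist read 12.57 and 12.27 on DKO N4, 12.44 and 12.33 on PKC KO N4, 5.18 and 6.65 on WT N4, and 6.05 and 11.84 on WT UN arrays. The Y-linked Eif2s3y read 5.42 and 5.88 on DKO N4, 6.73 and 5.51 on PKC KO N4, 10.78 and 11.20 on WT N4, and 11.06 and 10.65 on WT UN arrays. Between either knockout and wild-type cells, genotype and these sex-linked differences cannot be told apart for any member. Pgk1 and Pdha1 are X-linked themselves. Number 2 of WT N4 and number 2 of PKC KO N4 gave the 2 highest values of each HIF target, as described below.

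**Figure D1:**
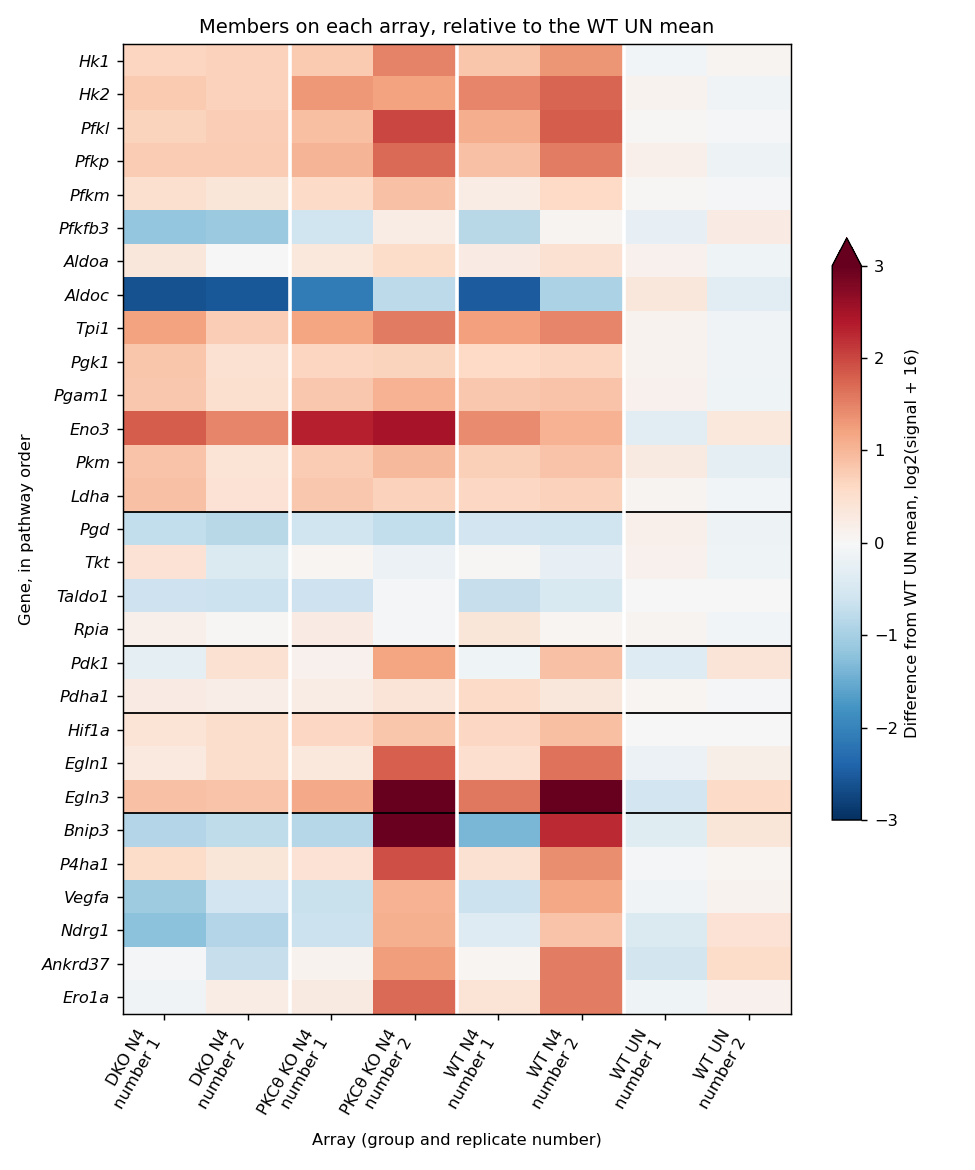
Each row is a member in pathway order and each column an array, coloured by its difference from the WT UN mean on the log2(signal + 16) scale (colours stop at 3, which Egln3 passed on number 2 of PKC KO N4 and of WT N4). Black lines separate glycolysis, pentose phosphate, pyruvate dehydrogenase, HIF with its hydroxylases, and HIF targets. Glycolysis rows are red on all 6 N4 arrays apart from Pfkfb3, Aldoc and the pale Aldoa, whereas the HIF target rows are red on number 2 of PKC KO N4 and of WT N4.

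Most of the glycolytic enzymes of wild-type cells rose with the N4 peptide. Comparing WT N4 with WT UN cells, 16 of 29 members (55.2%) changed, against 40.7% of all genes. By direction, 13 members rose, against 17.2% of all genes, and 3 fell, against 23.5%. The median member differed by 0.65 and the median of all genes by -0.10. Of the 14 glycolytic members 10 rose and 1 fell, of the 4 pentose phosphate members none rose and 2 fell, and of the 6 HIF targets none passed. The groups of arrays did not overlap for 21 of 29 members, against 68.4% of all genes. Without number 2 of WT N4 10 of 29 members passed, against 34% of all genes in that fit, and without number 2 of WT UN 9 of 29 passed, against 29.8%, so that in these 2 fits the members' share is near that of all genes.

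The hexokinases, which trap glucose in the cell as glucose phosphate, both rose. Hk2, the inducible hexokinase, read 12.44 and 12.73 in WT N4 cells, against 11.10 and 10.89 in WT UN cells. It was 3.02-fold higher with N4, a difference of 1.59 (SE 0.15, adjusted p = 9.31e-05), and the groups stood far apart. Hk1, the constitutive form, read 11.76 and 12.26 in WT N4 cells, against 10.86 and 11.00 in WT UN cells (difference 1.08, SE 0.24, adjusted p = 0.0069).

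Phosphofructokinase commits sugar to glycolysis, and its subunits differed in how far they moved. Pfkl, the liver-type subunit, read 11.33 and 12.05 in WT N4 cells, against 10.28 and 10.20 in WT UN cells, a rise of 1.45 (SE 0.34, adjusted p = 0.00916). Pfkp, the platelet-type subunit, read 12.29 and 12.95 in WT N4 cells, against 11.57 and 11.25 in WT UN cells, a rise of 1.21 (SE 0.27, adjusted p = 0.00687). For both the WT N4 array with number 2 was the higher, and without it the Pfkl difference was 1.09 and missed the threshold (adjusted p = 0.0523). A dim probe set of Pfkl (mean level 7.51) differed by only -0.05, while its other probe set differed by 1.23. Those of Pfkp differed by 1.34 and 0.37, the last a dim one (mean level 6.87). With the mean of all probe sets of a gene, Pfkl (0.88, adjusted p = 0.128) and Pfkp (0.98, adjusted p = 0.0768) missed the threshold. The muscle-type Pfkm (difference 0.42, adjusted p = 0.152) and Pfkfb3, whose product makes the sugar phosphate that activates phosphofructokinase (difference -0.37, adjusted p = 0.448), did not pass. Pfkm passed with quantile normalization (0.87, adjusted p = 0.0123) and with median centring (0.82, adjusted p = 0.0466).

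Of the aldolases, Aldoc, which is best known from brain, moved against the rest of the pathway. It read 6.23 and 7.77 in WT N4 cells, against 9.05 and 8.38 in WT UN cells, a fall of 1.72 (SE 0.56, adjusted p = 0.0368). The WT N4 arrays lay 1.54 apart, and the call was lost without number 1 of WT N4, where the difference was -0.95 (adjusted p = 0.219), and without either WT UN array (adjusted p = 0.171 and 0.0567). Aldoa, the main aldolase of muscle and blood cells and among the brightest members, differed by 0.36 and did not pass (adjusted p = 0.124). Its 4 other probe sets differed by 0.20 to 0.60.

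Of the members that act between triose phosphate and lactate, Tpi1, Pgk1, Pgam1, Eno3, Pkm and Ldha rose. Tpi1, triose phosphate isomerase, read 13.67 and 13.91 in WT N4 cells, against 12.54 and 12.35 in WT UN cells, and was 2.54-fold higher (difference 1.35, SE 0.19, adjusted p = 0.000815). Its 2 other probe sets differed by 1.48 and 1.47. Pgam1, phosphoglycerate mutase, rose by 0.82 (SE 0.16, adjusted p = 0.00338). Pgk1, phosphoglycerate kinase, read 13.75 and 13.81 in WT N4 cells, against 13.27 and 13.04 in WT UN cells (difference 0.62, SE 0.15, adjusted p = 0.00984). Pkm, pyruvate kinase, rose by 0.79 (SE 0.21, adjusted p = 0.0153). Ldha, the lactate dehydrogenase subunit typical of fermenting cells, had the highest mean level among the members and read 14.14 and 14.20 in WT N4 cells, against 13.60 and 13.43 in WT UN cells (difference 0.65, SE 0.15, adjusted p = 0.00882). Pgam1, Pgk1, Pkm and Ldha had smaller differences than either hexokinase.

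Eno3, the muscle-type enolase, was the only enolase measured among the members. It read 10.68 and 10.32 in WT N4 cells, against 8.95 and 9.58 in WT UN cells, a rise of 1.23 (SE 0.23, adjusted p = 0.00331). Hk1, Hk2, Pfkp, Tpi1, Pgam1, Eno3 and Hif1a passed in all 8 fits that each left out 1 array. Pgk1 and Pkm lost their call without number 2 of WT N4 and without number 2 of WT UN, and Ldha without number 2 of WT UN (adjusted p = 0.0501).

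**Figure D2:**
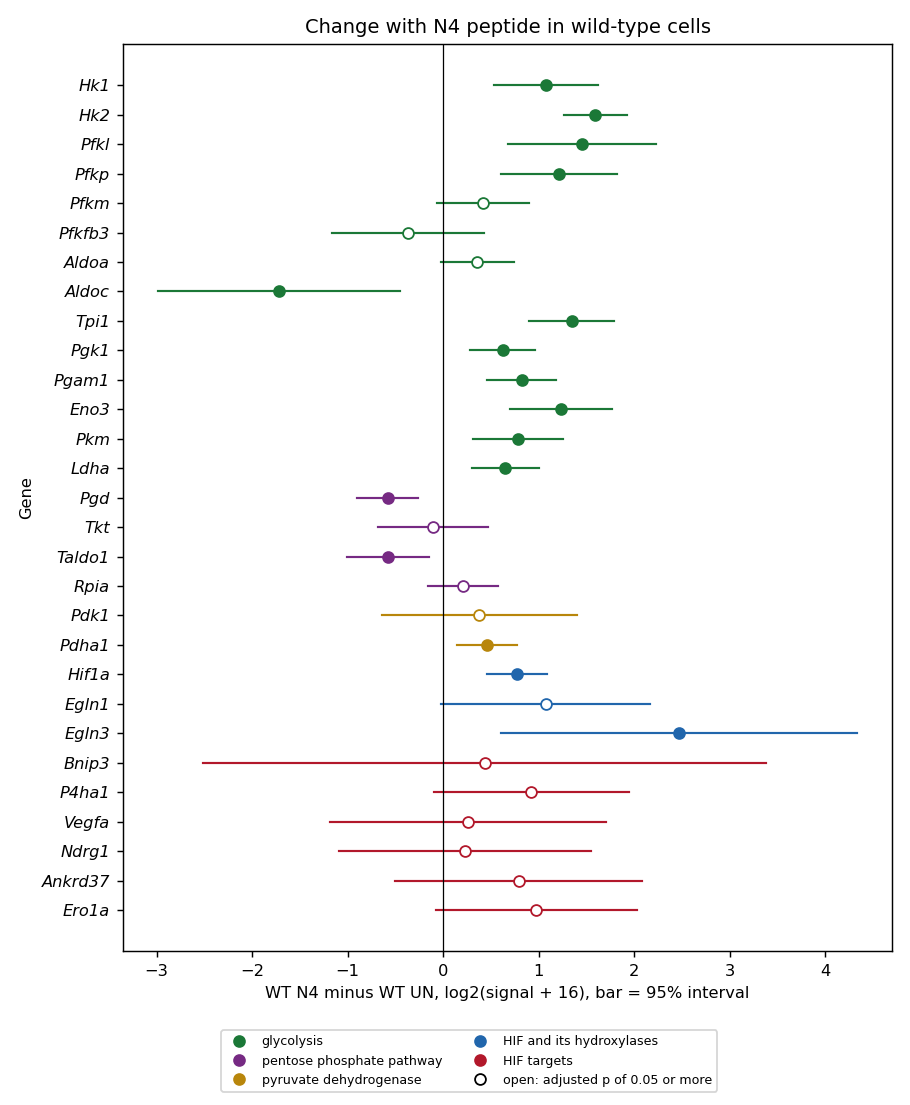
Points give WT N4 minus WT UN for each member on the log2(signal + 16) scale, bars the 95% interval of the fit, colours the role, and open points members that did not pass. The 10 glycolytic genes that rose sit between 0.62 and 1.59, Aldoc at -1.72, and the bars of the HIF targets all cross 0.

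None of the 4 pentose phosphate members rose, and 2 fell. Pgd, phosphogluconate dehydrogenase of the NADPH-making arm, read 12.31 and 12.27 in WT N4 cells, against 13.03 and 12.71 in WT UN cells, a fall of 0.58 (SE 0.14, adjusted p = 0.0104). All 4 of its probe sets differed the same way, by -0.48 to -0.79. Taldo1, transaldolase of the arm that links pentoses back to glycolysis, read 11.23 and 11.47 in WT N4 cells, against 11.94 and 11.90 in WT UN cells, a fall of 0.57 (SE 0.19, adjusted p = 0.0391). Pgd missed the threshold without number 2 of WT N4 (adjusted p = 0.0513) or number 1 of WT UN (0.0705), and Taldo1 without any of the 4 arrays compared (adjusted p from 0.0529 to 0.192). Tkt, transketolase (difference -0.11), and Rpia, ribose phosphate isomerase (difference 0.21), did not pass, and the other probe sets of Tkt differed by 0.37 and -0.92. The falls depend on the scaling: with each array centred on its median, which moved the median difference of all genes to 0.30, Pgd differed by -0.18 and Taldo1 by -0.17, neither passing, while with quantile normalization (median of all genes 0.08) both passed, at -0.76 and -0.72. The Aldoc call was lost with median centring (difference -1.32, adjusted p = 0.0522), so that no member fell and 16 rose under it, and with quantile normalization (-1.24, adjusted p = 0.0848).

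At the entry to the mitochondria, Pdha1, the catalytic alpha subunit of pyruvate dehydrogenase, read 11.87 and 11.65 in WT N4 cells, against 11.35 and 11.25 in WT UN cells, a rise of 0.46 (SE 0.14, adjusted p = 0.0274). Its second probe set differed by 1.17. The Pdha1 call was lost without number 1 of WT N4 and without either WT UN array. Pdk1, a kinase that switches pyruvate dehydrogenase off and a HIF target itself, read 10.92 and 11.92 in WT N4 cells, against 10.66 and 11.42 in WT UN cells, groups that overlapped (difference 0.38, adjusted p = 0.548). Its 3 other probe sets differed by 0.49, -0.23 and -1.11, the last a dim one (mean level 5.85). The sex-linked transcripts above differ between WT arrays too, and their part in the values of Pgk1 and Pdha1 was not tested.

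Hif1a read 13.53 and 13.81 in WT N4 cells, against 12.91 and 12.90 in WT UN cells, a rise of 0.77 (SE 0.14, adjusted p = 0.00241). Its 3 other probe sets differed by 0.68 to 1.72. Egln3, a hydroxylase that is itself induced by HIF, read 10.39 and 12.15 in WT N4 cells, against 8.22 and 9.37 in WT UN cells, the largest difference among the members at 2.47 (SE 0.82, adjusted p = 0.0395). Both groups were wide, and without number 2 of WT N4 the Egln3 difference was 1.59 (adjusted p = 0.194). The call was lost without either WT UN array as well (adjusted p = 0.185 and 0.0502). Egln1, the hydroxylase that mainly sets HIF levels, differed by 1.08 without passing (adjusted p = 0.108), and passed with median centring (1.48, adjusted p = 0.0145).

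Summed over each list, as the log2 of the added signals without the 16, the markers of other cells moved with the same arrays. The summed level of 9 B cell markers was 13.30 and 12.28 in WT N4 cells, against 15.85 and 15.32 in WT UN cells. That of 12 dendritic cell and macrophage markers was 13.42 and 11.52 in WT N4 cells, against 16.51 and 16.09 in WT UN cells. Whether such cells remained cannot be read from these sums, and the part of these cells in the falls of Aldoc, Pgd and Taldo1, or in any rise, was not tested.

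In PKC KO N4 and WT N4 cells the HIF targets differed widely between the arrays of a group. Bnip3, a receptor for the removal of mitochondria, read 9.32 and 9.44 in DKO N4, 9.33 and 13.17 in PKC KO N4, 8.82 and 12.44 in WT N4, and 9.83 and 10.56 in WT UN cells. The second array of PKC KO N4 and of WT N4 thus lay above the first, by 3.84 in PKC KO N4 and 3.62 in WT N4, in both groups the 2nd largest such gap of 12520 genes. Vegfa, the vascular growth factor, read 7.69 and 8.19 in DKO N4, 8.10 and 9.81 in PKC KO N4, 8.12 and 9.91 in WT N4, and 8.65 and 8.86 in WT UN cells. The same 2 arrays were again the highest, and the first arrays of the N4 groups lay below both WT UN arrays.

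Ankrd37, an ankyrin repeat protein known as a hypoxia-induced gene, read 8.64 and 8.01 in DKO N4, 8.81 and 9.96 in PKC KO N4, 8.75 and 10.22 in WT N4, and 8.15 and 9.25 in WT UN cells. Ndrg1, a stress-induced gene of cell differentiation, read 8.39 and 8.74 in DKO N4, 8.97 and 10.70 in PKC KO N4, 9.24 and 10.47 in WT N4, and 9.19 and 10.07 in WT UN cells. For these 2 genes the second WT UN array was high as well, above the first arrays of all groups, and for Ndrg1 the DKO N4 arrays were the lowest of all 8. P4ha1, a subunit of the enzyme that hydroxylates collagen, read 9.86 and 9.66 in DKO N4, 9.73 and 11.23 in PKC KO N4, 9.76 and 10.69 in WT N4, and 9.24 and 9.36 in WT UN cells. Ero1a, an oxidase that forms disulphide bonds in secreted proteins, read 11.11 and 11.43 in DKO N4, 11.47 and 12.91 in PKC KO N4, 11.63 and 12.74 in WT N4, and 11.09 and 11.33 in WT UN cells. P4ha1 and Ero1a had their lowest group mean in WT UN cells and separated WT N4 from WT UN arrays without overlap, with differences of 0.93 for P4ha1 (adjusted p = 0.138) and 0.97 for Ero1a (adjusted p = 0.129). Both passed with median centring (1.33, adjusted p = 0.0239, for P4ha1 and 1.37, adjusted p = 0.0194, for Ero1a), and Ero1a also with the mean of all probe sets of a gene (adjusted p = 0.0421).

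Number 2 exceeded number 1 by more than 1 in 0 of 6 HIF targets in DKO N4, in 6 of 6 in PKC KO N4, in 5 of 6 in WT N4 and in 1 of 6 in WT UN cells. Over all genes the share was 2.47% in DKO N4, 4.06% in PKC KO N4, 4.84% in WT N4 and 3.58% in WT UN cells. The pattern took in Egln3, which read 9.68 and 9.65 in DKO N4 and 9.92 and 12.52 in PKC KO N4 cells, and Egln1, which read 10.25 and 10.49 in DKO N4 and 10.27 and 11.76 in PKC KO N4 cells. Among glycolytic members a gap of that size was found for Pfkl and Aldoc in PKC KO N4 and for Aldoc in WT N4 cells. In the list of 35 other HIF pathway genes, 0 had such a gap in DKO N4, 13 in PKC KO N4, 12 in WT N4 and 0 in WT UN cells. They included P4ha2, with gaps of 3.37 in PKC KO N4 and 2.22 in WT N4, Ddit4, with 2.59 in PKC KO N4 and 2.48 in WT N4, and the lactate exporter gene Slc16a3, with 2.45 in PKC KO N4 and 2.02 in WT N4, named here after their values were seen. Number 2 of WT N4 had the lowest summed B cell and dendritic cell marker levels of all 8 arrays and number 2 of PKC KO N4 the next lowest. In PKC KO N4 the sums were 13.47 and 12.79 for B cells and 13.35 and 12.20 for dendritic cells and macrophages, and the part of these in the gaps was not tested. With 2 arrays a group, and 1 of each number, these gaps have no test.

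**Figure D3:**
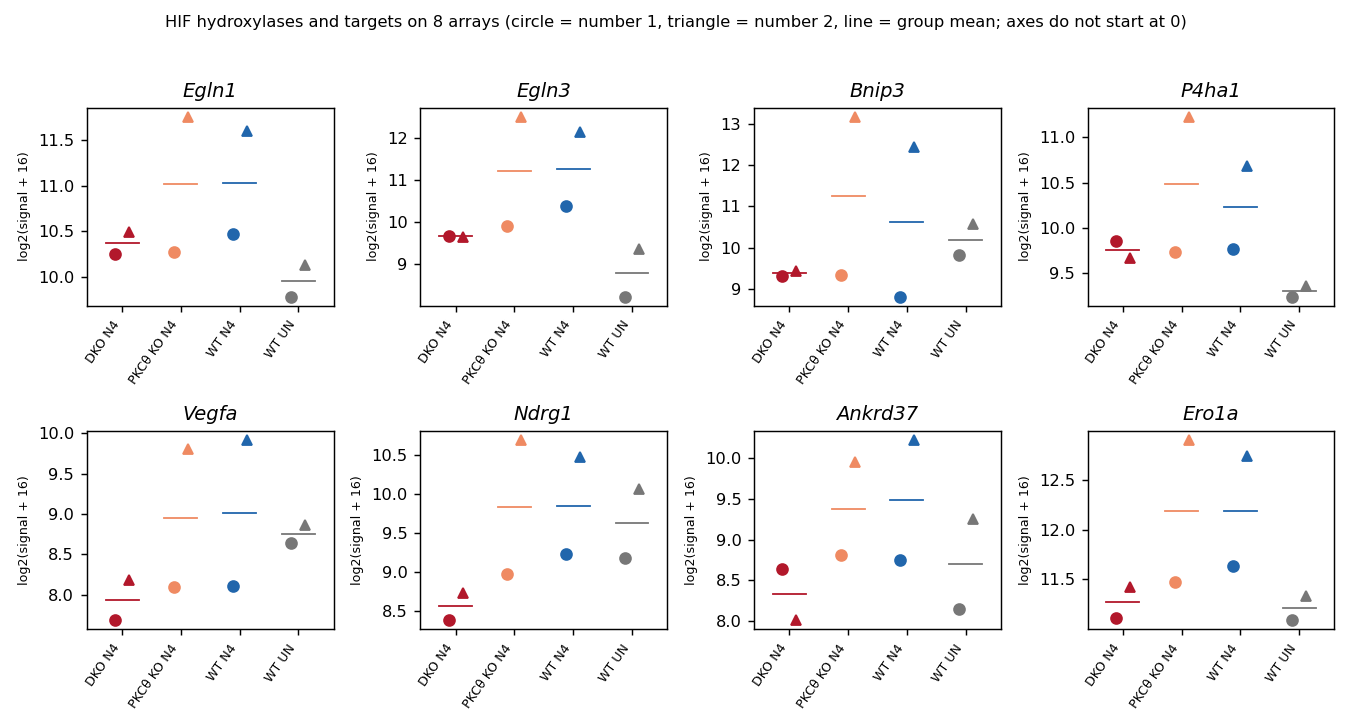
Each panel shows a hydroxylase or HIF target gene on all 8 arrays, on the log2(signal + 16) scale, with circles for number 1, triangles for number 2 and lines for group means. The triangles of PKC KO N4 and WT N4 are the 2 highest points in every panel, and none of the DKO N4 points reaches them.

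No member passed the test for loss of PKC theta. Comparing PKC KO N4 with WT N4 cells, 0 of 29 members changed, against 0.024% of all genes (3 of 12520). In limma 2 members had an unadjusted p under 0.05, against 2.96% of all genes, and the lowest adjusted p was 0.446. The median member differed by 0.05 and the median of all genes by -0.02. The members' median was -0.22 without number 2 of PKC KO N4 and 0.36 without number 2 of WT N4. For 18 of 29 members the 95% interval of the difference lay within -1 and 1, and for the other 11, among them all 6 HIF targets, it reached further.

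Eno3 had that lowest adjusted p. It read 11.60 and 11.73 in PKC KO N4 cells, against 10.68 and 10.32 in WT N4 cells, a difference of 1.17 (SE 0.23, 95% interval 0.64 to 1.71). The 2 groups did not overlap and the PKC KO N4 arrays were the highest of all 8, but the difference did not pass over all genes. Hk2 read 12.28 and 12.20 in PKC KO N4 cells, against 12.44 and 12.73 in WT N4 cells (difference -0.34, unadjusted p = 0.0432, adjusted p = 1). Ldha read 14.32 and 14.21 in PKC KO N4 cells, against 14.14 and 14.20 in WT N4 cells, with a 95% interval of the difference from -0.25 to 0.44. These 3 members were the only ones whose groups did not overlap, against 25.8% of all genes. Tpi1 differed by 0.03 (95% interval -0.41 to 0.47), Hif1a by -0.04 (-0.35 to 0.27) and Bnip3 by 0.62 (-2.32 to 3.56), so that the interval of Bnip3 leaves differences of several-fold either way.

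Most members read lower in cells without p50 and cRel, though none passed. Comparing DKO N4 with WT N4 cells, 0 of 29 members changed, against 0.519% of all genes (65 of 12520), and in limma 1 member had an unadjusted p under 0.05, against 6.29% of all genes. The difference was below 0 for 26 of 29 members, against 50.4% of all genes, with a median of -0.38 in the members and -0.00 in all genes. Within number 1 alone 18 members were below 0, and within number 2 alone 28 were, as described below. The groups did not overlap for 15 members, against 30.5% of all genes.

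Hk2 came closest to the threshold. It read 11.78 and 11.67 in DKO N4 cells, against 12.44 and 12.73 in WT N4 cells, a difference of -0.86 (SE 0.15, 95% interval -1.19 to -0.53), and its adjusted p of 0.05001 just missed. The DKO N4 arrays lay between those of WT N4 and WT UN without overlap. Over the alternative settings the adjusted p of Hk2 ran from 0.0165 to 0.622, and it passed in 3 of them, with pseudocount 64, with the 60th percentile filter and with the replicate block. Its difference held its sign within each replicate number, at -0.67 for number 1 and -1.06 for number 2.

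The other glycolytic members gave smaller or wider differences. Pfkl read 10.89 and 10.98 in DKO N4 cells, against 11.33 and 12.05 in WT N4 cells (difference -0.75, 95% interval -1.53 to 0.02). Pfkfb3 read 8.86 and 8.92 in DKO N4 cells, against 9.19 and 10.11 in WT N4 cells (difference -0.76, 95% interval -1.56 to 0.03). In both the DKO N4 arrays lay close together below both WT N4 arrays, and without number 2 of WT N4 the differences were -0.39 for Pfkl and -0.30 for Pfkfb3. Ldha read 14.39 and 13.95 in DKO N4 cells, on either side of the 14.14 and 14.20 in WT N4 cells, with an interval of -0.35 to 0.35. Pgk1 had an interval of -0.32 to 0.36, and Pgam1 differed by -0.18 and Pkm by -0.15. Eno3, at 11.07 and 10.73 in DKO N4 cells against 10.68 and 10.32 in WT N4 cells, was higher without passing (difference 0.41, 95% interval -0.13 to 0.94).

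**Figure D4:**
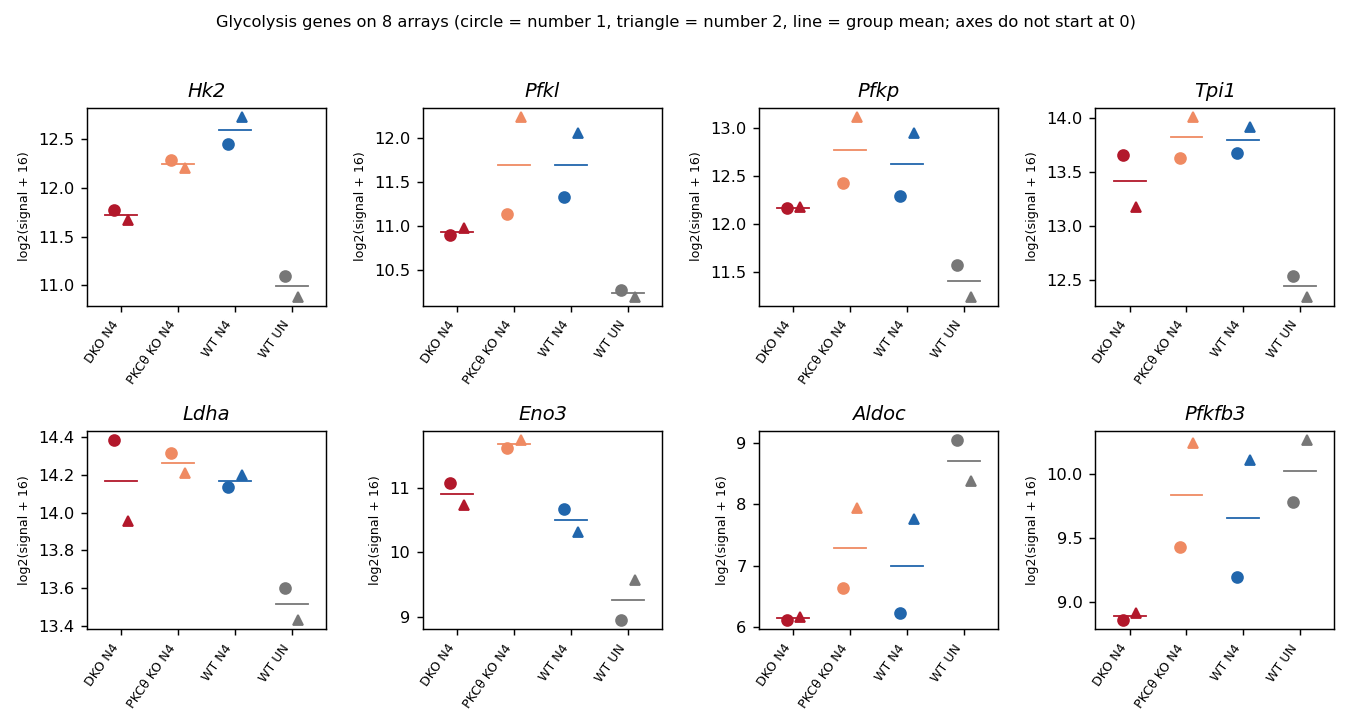
Each panel shows a glycolytic gene on all 8 arrays, on the log2(signal + 16) scale, with circles for number 1, triangles for number 2 and lines for group means. The Hk2 groups do not overlap, with WT N4 highest, then PKC KO N4, DKO N4 and WT UN, Eno3 is highest in PKC KO N4, and Aldoc and Pfkfb3 are lowest in DKO N4.

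Of the pentose phosphate genes, the difference between DKO N4 and WT N4 cells was -0.20 for Pgd (95% interval -0.52 to 0.12), -0.06 for Taldo1 (-0.49 to 0.37) and -0.12 for Rpia (-0.49 to 0.25). Tkt differed by 0.10 (-0.48 to 0.68), by -0.33 without number 1 and by 0.53 without number 2 of DKO N4. Hif1a read 13.32 and 13.44 in DKO N4 cells, against 13.53 and 13.81 in WT N4 cells (difference -0.29, adjusted p = 0.863). The 6 HIF targets and Egln3 gave differences between -1.61 and -0.46 with wide intervals. Egln3 differed by -1.61 (95% interval -3.47 to 0.26), Ndrg1 by -1.29 (-2.61 to 0.03) and Bnip3 by -1.25 (-4.19 to 1.69), all without passing. Without number 2 of WT N4 Egln3 differed by -0.72 and Ndrg1 by -0.67.

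These differences were larger within number 2 than within number 1. Within number 1, the 8 hydroxylase and HIF target genes Egln1, Egln3, Bnip3, P4ha1, Vegfa, Ndrg1, Ankrd37 and Ero1a differed between DKO N4 and WT N4 by -0.85 to 0.50, with a median of -0.32, and 6 of the 8 were below 0. Within number 2 they differed by -3.00 to -1.03, with a median of -1.73, and all 8 were below 0. Over all 29 members the median difference was -0.13 within number 1, with 18 below 0, and -0.64 within number 2, with 28 below 0, while the median of all genes was 0.00 and -0.01. Bnip3 was 0.50 within number 1 and -3.00 within number 2. Without number 2 of WT N4 the members' median was -0.15, and the Bnip3 difference was 0.56 (SE 1.18) in that fit. Each within-number difference is 1 array against 1 array and has no test.

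**Figure D5:**
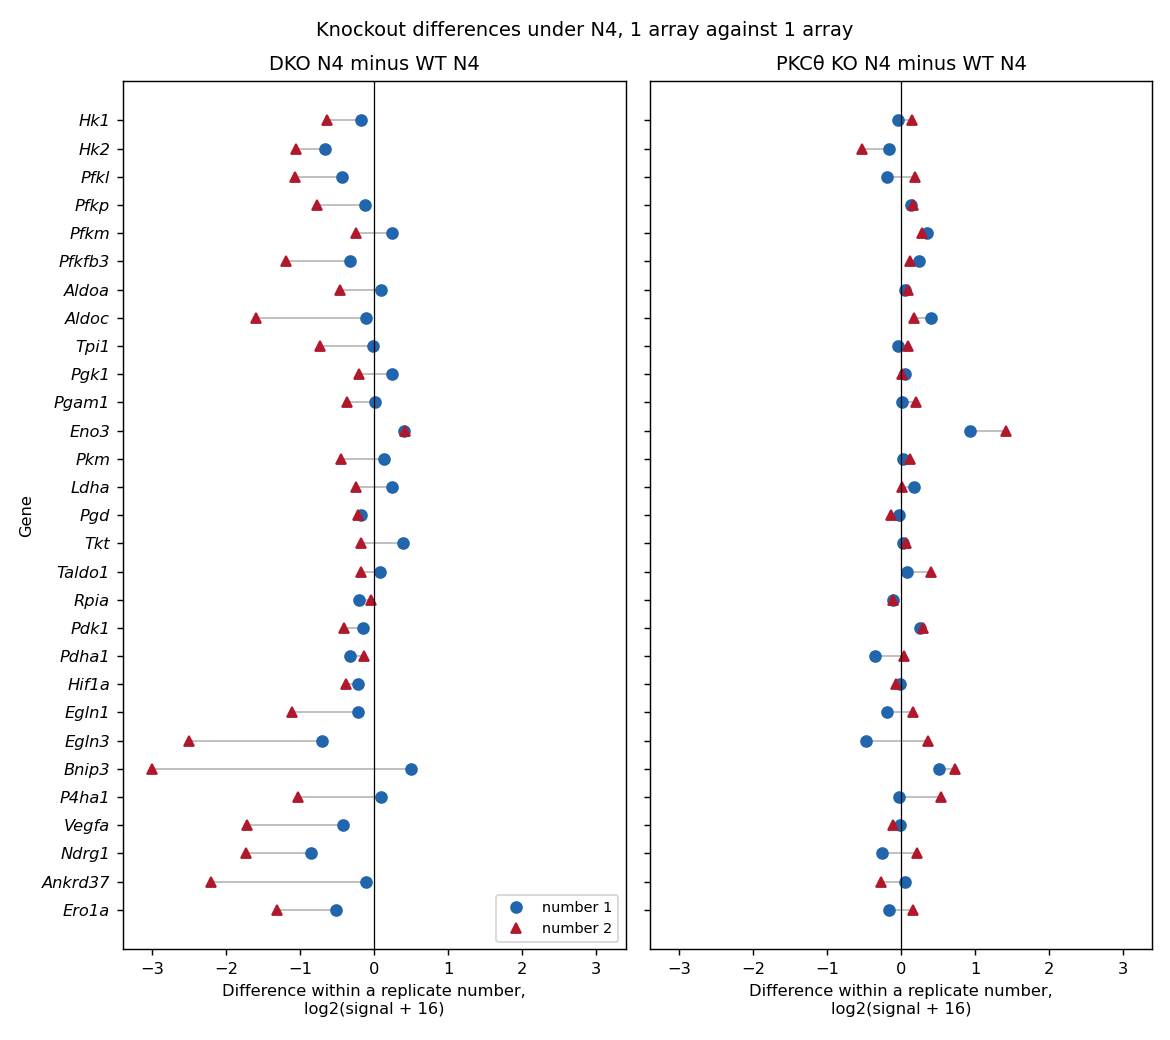
Points give the difference of a knockout N4 array from the WT N4 array of the same number, on the log2(signal + 16) scale, with circles for number 1 and triangles for number 2, for DKO N4 on the left and PKC KO N4 on the right. In the left panel the triangles of the hydroxylase and HIF target genes lie between -3.00 and -1.03 while their circles lie between -0.85 and 0.50, and in the right panel all points lie between -0.52 and 1.42, with Eno3 the highest.

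Set against PKC KO N4 cells, most members again read lower in DKO N4 cells without passing, 20 of 29 of them within both numbers. Comparing DKO N4 with PKC KO N4 cells, 0 of 29 members changed, against 0.431% of all genes (54 of 12520), and in limma 3 had an unadjusted p under 0.05, against 7.16% of all genes. The difference was below 0 for 28 of 29 members, against 47.3% of all genes, with a median of -0.52 and a median of all genes of 0.02. The groups did not overlap for 15 members, against 33.9% of all genes. The 3 members were Hk2 (difference -0.52, SE 0.15, adjusted p = 0.342), Eno3 (-0.77, SE 0.23, adjusted p = 0.423) and Pfkfb3 (-0.95, SE 0.35, adjusted p = 0.581). Pfkfb3 read 8.86 and 8.92 in DKO N4 cells, against 9.43 and 10.24 in PKC KO N4 cells. Within number 1 the members' median was -0.14, with 21 below 0, and within number 2 it was -0.79, with 28 below 0. Without number 2 of PKC KO N4 the members' median was -0.16. This comparison shares its DKO N4 arrays with the one before.

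Each knockout with N4 was also set against WT UN cells, where peptide and genotype both differ and the WT UN arrays are shared with the wild-type comparison. Comparing PKC KO N4 with WT UN cells, 14 of 29 members changed, against 40.6% of all genes: 13 rose, against 16.5% of all genes, and Pgd fell by 0.67 (SE 0.14, adjusted p = 0.00553), against 24% of all genes falling. Groups did not overlap for 21 of 29 members, against 68.8% of all genes. The median member differed by 0.73, and without number 2 of PKC KO N4 by 0.32, where 10 members rose and 3 fell, against 33% of all genes changing in that fit. Of the 14 glycolytic members 11 rose, led by Eno3 at 2.40 (SE 0.23, adjusted p = 0.000135), and Hk2 was 1.25 higher (SE 0.15, adjusted p = 0.000305). Pfkm, the muscle-type subunit, read 8.62 and 8.92 in PKC KO N4 cells, against 8.07 and 8.01 in WT UN cells (difference 0.73, adjusted p = 0.0231).

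Comparing DKO N4 with WT UN cells, 12 of 29 members changed, against 39.3% of all genes: 8 rose, against 16.5% of all genes, and 4 fell, against 22.8%. Groups did not overlap for 23 of 29 members, against 70.5% of all genes. The share of members that changed is near that of all genes. Without number 1 of DKO N4 5 of 29 members passed, against 25.8% of all genes in that fit, and without number 2 of WT UN 5 passed, against 28.8%. Glycolysis still rose at 7 of 14 members, with Eno3 1.64 higher (SE 0.23, adjusted p = 0.00085), Tpi1 0.97 higher (SE 0.19, adjusted p = 0.00443) and Hk2 0.73 higher (SE 0.15, adjusted p = 0.00426). The 4 falls were Pfkfb3 (-1.13, adjusted p = 0.0312), Aldoc (-2.58, adjusted p = 0.00642), Pgd (-0.78, adjusted p = 0.00266) and Taldo1 (-0.63, adjusted p = 0.0279). These falls too depend on the settings, and with median centring 1 member fell. Of the 4 only Aldoc kept its call in all alternative settings. Aldoc read 6.11 and 6.17 in DKO N4 cells, its lowest level in the series, against 9.05 and 8.38 in WT UN cells. Its DKO N4 signals were dim, at 53.2 and 56.0 against array medians of 37.9 and 48.2. A second Aldoc probe set, which missed the filter, differed by 0.09 between DKO N4 and WT N4 cells, against -0.86 for the one used. The Hk2 differences from WT UN cells, side by side, were 0.73 in DKO N4, 1.25 in PKC KO N4 and 1.59 in WT N4 cells.

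Other genes of these pathways were read from lists chosen by pathway, beside the 17.2% of all genes that rose and the 23.5% that fell in WT N4 against WT UN cells. Of 15 further genes of glycolysis and its side steps, 1 rose and 3 fell in WT N4 against WT UN cells: Gpd2, the mitochondrial glycerol phosphate dehydrogenase, rose by 1.59 (SE 0.21), while Hk3, a hexokinase of myeloid cells, fell by 2.17 (SE 0.32), Pfkfb4, a relative of Pfkfb3, fell by 1.22 and Galm, which interconverts sugar anomers, fell by 1.14. Of 10 further pentose phosphate genes 5 rose and 1 fell, with Prps1, which makes the activated ribose for nucleotides, rising by 0.85 (SE 0.13), Rpe, ribulose phosphate epimerase, by 0.44 and Rbks, ribokinase, by 0.73, while H6pd of the endoplasmic reticulum fell by 0.57. Of 10 further genes of pyruvate entry 3 rose and 1 fell: Dlat and Pdhx, parts of the pyruvate dehydrogenase complex, rose by 1.01 and 0.63, the kinase Pdk3 rose by 0.58, and the kinase Pdk2 fell by 1.98. Of 35 further HIF pathway genes 7 rose and 11 fell. The lactate carrier Slc16a1 rose by 1.16 (SE 0.13), while the HIF family member Epas1 fell by 2.89 (SE 0.28), the glycogen phosphorylase Pygl fell by 4.14 (SE 0.34) and Txnip, an inhibitor of glucose uptake, fell by 3.50 (SE 0.25). Hk3, Epas1 and Pygl fell in the same comparison as the summed dendritic cell and macrophage markers given above, whose part was not tested. Between the WT N4 arrays that sum went from 13.42 on number 1 to 11.52 on number 2. There Hk3 differed by 0.24, Pygl by 0.04 and Epas1 by -0.39, number 2 minus number 1.

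In these 4 lists, of 15, 10, 10 and 35 genes, 1 gene passed under N4 in a knockout against WT N4. Over all genes 0.519% passed in DKO N4 against WT N4, 0.024% in PKC KO N4 against WT N4 and 0.431% in DKO N4 against PKC KO N4. Bhlhe40, a transcription factor induced by hypoxia and by T cell activation, averaged 11.31 in DKO N4 cells, against 12.57 in WT N4 cells (difference -1.26, SE 0.17, adjusted p = 0.0206), and 12.38 in PKC KO N4 cells (difference of DKO N4 from PKC KO N4 -1.07, adjusted p = 0.0453). Unlike the HIF targets above, its difference between DKO N4 and WT N4 was of similar size within both numbers, -1.07 and -1.45. The Bhlhe40 call against PKC KO N4 was lost in the fit without number 1 of DKO N4. No gene of the 4 lists passed in PKC KO N4 against WT N4, where none had an unadjusted p under 0.05 in limma, against 2.96% of all genes.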

How the data were processed

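Expression was measured on 8 one-colour Affymetrix arrays. The deposited values are intensity values, 1 linear signal per probe set, made by the authors with GCOS 1.4 (MAS5 is named too, per the submitters' processing notes), and every array had a 2% trimmed mean of 500.003 or 500.002. Of 45101 probe sets, 64 controls were left out, and 34945 had 1 gene symbol in the platform annotation, 932 several and 9160 none. For 34741 the symbol was matched by Entrez identifier to RefSeq on GRCm38.p6. From the deposited signals log2(signal + 16) was computed, those with a mean below the 40th percentile (5.38) were dropped, and the brightest of a gene was kept, giving 12520 genes. All 8 arrays entered 1 limma 3.58.1 model in R 4.3.3 (eBayes with trend, 4 residual degrees of freedom), tested on simulated data, with Benjamini-Hochberg adjustment over all genes. Groups came from the titles, and an array without a number was taken as number 1. All members were named, up to 4 genes of each further list by lowest p, and those passing in a knockout. A few others were chosen after their values were seen. The members and lists were chosen with earlier results of these data known. Nfkb1 is not reported here. Alternatives were the pseudocount, the filter, the scaling, the probe set rule, the trend, the arrays fitted, the replicate block and leaving out each array. Precision is limited by 2 arrays a group.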

Additional observations from a re-analysis of the deposited data

How the results depend on the processing

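All 10 other settings and the 8 fits that each left out 1 array were run for the 6 counts of changed members. In a fit without 1 array the lone array of its group is assumed to vary like the others. Such fits gave 9 to 19 members for WT N4 against WT UN, with 10 without number 2 of WT N4 and 9 without number 2 of WT UN, against 16. They gave 5 to 15 for DKO N4 against WT UN, with 5 both without number 1 of DKO N4 and without number 2 of WT UN, against 12, and 11 to 17 for PKC KO N4 against WT UN, against 14. They gave 0 to 0 in the 3 comparisons among N4 groups. The count for DKO N4 against WT N4 was 1, Hk2, with pseudocount 64, with the 60th percentile filter and with the replicate block, against 0. Median centring gave 16 rises and 0 falls for WT N4 against WT UN, 17 and 0 for PKC KO N4 against WT UN, and 10 and 1 for DKO N4 against WT UN. The counts not named here stayed within 1.5 times the reported ones, and no called difference changed sign. The replicate block gave 19 members for WT N4 against WT UN (the 16 and Egln1, Pdk1 and Ero1a), 20 for PKC KO N4 and 16 for DKO N4 against WT UN, and 0 for PKC KO N4 against WT N4 and for DKO N4 against PKC KO N4. The labels do not say what the numbers share. Deviations of same-numbered arrays correlated across genes at 0.25 to 0.58 between groups. The causes of these shifts were not tested beyond the fewer arrays in a fit.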
